A study of Mus musculus with 12 samples.

Results

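The 7 genes followed here belong to the quiescence and stemness programme of T cells: Tcf7, Lef1, Bach2, Satb1, Foxp1, Klf3 and Txk. They were chosen by symbol from the gene table, which holds 32285 genes, and all 7 matched 1 row each. Of these, 6 encode transcription factors or chromatin organisers, and Txk encodes a tyrosine kinase. The genes were measured in brain T cells of female mice aged 9 months, as unique molecular identifier (UMI) counts from droplet 5′ single-cell RNA sequencing with matched T cell receptor sequencing. There were 6 pools of mice: wild type WT-1 (10 mice) and WT-2 (8 mice), 5XFAD-1 (4 mice) and 5XFAD-2 (3 mice), PS19 (4 mice) and PS-5X (4 mice). 5XFAD mice carry familial Alzheimer's disease transgenes that lead to amyloid deposition. PS19 mice carry mutant human tau (MAPT) under the mouse prion protein promoter, and PS-5X mice carry both sets of transgenes. All came from crosses of hemizygous PS19 and 5XFAD mice, and the wild-type mice were littermates with neither transgene. Brains were perfused, digested with collagenase IV and DNase and cleared of myelin on Percoll. Sorting then took CD4+, CD8+ and γδ+ T cells, with CD45 and CD11b in the stain. Cells of several animals were pooled before capture, so the spread between animals is not measured. The second pools of both genotypes, WT-2 and 5XFAD-2, went through a separate sequencing run.

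Quiescent T cells keep a transcription programme that holds back effector genes and preserves the capacity to divide and self-renew. Tcf7 encodes TCF-1 and Lef1 encodes LEF-1, related HMG-box factors that bind the same DNA element, recruit β-catenin or Groucho/TLE corepressors, and mark naive, memory and stem-like T cells. Bach2 is a repressor that restrains effector differentiation. Satb1 organises chromatin and represses, among other genes, the gene for PD-1. Foxp1 is a forkhead factor needed to keep naive T cells at rest. Klf3 is a Krüppel-like repressor that binds CACCC elements and recruits CtBP. Txk is a Tec family kinase of resting T cells that acts downstream of the T cell receptor. In the brain, T cells are sparse in health and are mostly of effector or memory type, in which this programme is known to be low.

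The promoters of 3 members are printed here because the group includes factors that bind CACCC elements (Klf3) and TCF/LEF elements (Tcf7, Lef1). Klf3, Lef1 and Satb1 are the members with an upstream window outside the annotated gene. Klf3 has 1 promoter entry, Lef1 4 and Satb1 5, and only 1 stretch per gene is shown. Each stretch is the 250 bases upstream of a RefSeq start in GRCm38.p6, written 5′ to 3′ on the gene's strand, with CCACCC or its reverse complement in capitals.
Klf3, chr5:64803271-64803520, plus strand: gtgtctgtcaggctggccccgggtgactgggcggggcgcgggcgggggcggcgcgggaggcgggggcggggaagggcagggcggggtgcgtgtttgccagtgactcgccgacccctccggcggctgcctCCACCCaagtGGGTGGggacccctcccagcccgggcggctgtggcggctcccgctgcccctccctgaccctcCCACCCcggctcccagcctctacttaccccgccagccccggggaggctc
Lef1, chr3:131110047-131110296, plus strand: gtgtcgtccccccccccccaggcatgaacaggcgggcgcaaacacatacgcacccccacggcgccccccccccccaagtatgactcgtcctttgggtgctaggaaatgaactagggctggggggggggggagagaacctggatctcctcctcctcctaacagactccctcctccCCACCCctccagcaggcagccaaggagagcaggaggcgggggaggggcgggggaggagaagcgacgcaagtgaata
Satb1, chr17:51833291-51833540, minus strand: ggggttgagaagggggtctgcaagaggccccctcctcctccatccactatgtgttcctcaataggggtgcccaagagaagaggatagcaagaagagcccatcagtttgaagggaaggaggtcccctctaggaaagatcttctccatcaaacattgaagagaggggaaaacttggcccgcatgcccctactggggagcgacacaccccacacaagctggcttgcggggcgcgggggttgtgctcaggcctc
The Klf3 stretch held 3 matches to CCACCC on either strand, the Lef1 stretch held 1 and the Satb1 stretch held 0. In comparison, 28.1% of all 32851 upstream windows of 250 bases in the same table held at least 1 match. CTTTGA, the core searched for TCF/LEF, was in none of the 3 stretches, and 13.8% of all windows held it. G and C made up 78.4% of the Klf3 stretch, 66.4% of the Lef1 stretch and 58% of the Satb1 stretch. The windows of Tcf7, Bach2, Foxp1 and Txk lie within the annotated gene and are not printed.

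In GRCm38.p6 the genes are on separate chromosomes except for Klf3 and Txk, which are both on chromosome 5. Tcf7 (ENSMUSG00000000782) spans 52246527 to 52283383 on chromosome 11 and Lef1 (ENSMUSG00000027985) 131110297 to 131224357 on chromosome 3. Bach2 (ENSMUSG00000040270) spans 32238413 to 32586109 on chromosome 4, Satb1 (ENSMUSG00000023927) 51736187 to 51833290 on chromosome 17 and Foxp1 (ENSMUSG00000030067) 98925342 to 99522746 on chromosome 6. On chromosome 5, Klf3 (ENSMUSG00000029178) spans 64803521 to 64832901 and Txk (ENSMUSG00000054892) 72695978 to 72752992.

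Of 18374 cell barcodes, 17962 were kept, and the pools held 5883210 to 38616794 UMIs. Classes were set by receptor and coreceptor counts, so the 7 genes had no part in them: 9763 CD8 cells (404 to 3626 per pool), 2616 CD4 cells (128 to 710) and 761 γδ cells (31 to 230), with 4822 kept barcodes in no class. The classes matched their markers: Cd8a was at 666 to 929.5 CPM (a gene's share of the UMIs of its sum) in CD8 cells, 1.72 to 4.00 in CD4 cells and 2.22 to 34.75 in γδ cells, and Trdc was at 368 to 509.7 CPM in γδ cells and 2.13 to 8.77 in the others. Each cell's clone was counted within its pool, giving 5771 CD8 cells alone in their clone (singletons), 1862 in clones of 2 to 9 cells and 2130 in clones of 10 or more. These sizes count recovered cells, so they also depend on how many cells a pool gave. In the pools of the first run, receptors were shared between pools: in WT-1 166 of 559 cells with both chains (29.7%) had a receptor also found in another pool, in 5XFAD-1 563 of 1873 (30.1%), in PS19 9.61% and in PS-5X 4.18%, against 0 in WT-2 and 5XFAD-2. Among CD8 cells in clones of 2 or more, 71 of 86 in WT-1, 371 of 599 in 5XFAD-1, 119 of 330 in PS19 and 178 of 1864 in PS-5X were such cells. Results were therefore also computed without those of WT-1, and, as an alternative chosen after seeing the data, the clone size results without those of all pools. That leaves no CD8 clone of 10 or more in WT-1 and 5XFAD-1. Barcode sequences shared by a pair of pools never carried the same receptor.

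γδ T cells had the lowest levels of 6 of the 7 genes, and CD8 cells had less than CD4 cells of 4 genes and more of Txk (plot of levels by class and pool). UMIs were summed per pool and class, scaled to CPM by TMM, and compared within pools. Tcf7 ran from 296 to 610 CPM in the CD4 cells of the 6 pools (median 519), from 290 to 470 in CD8 cells (median 392) and from 136 to 276 in γδ cells (median 173). The γδ range lay below the other 2, which overlapped.

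**Figure D1:**
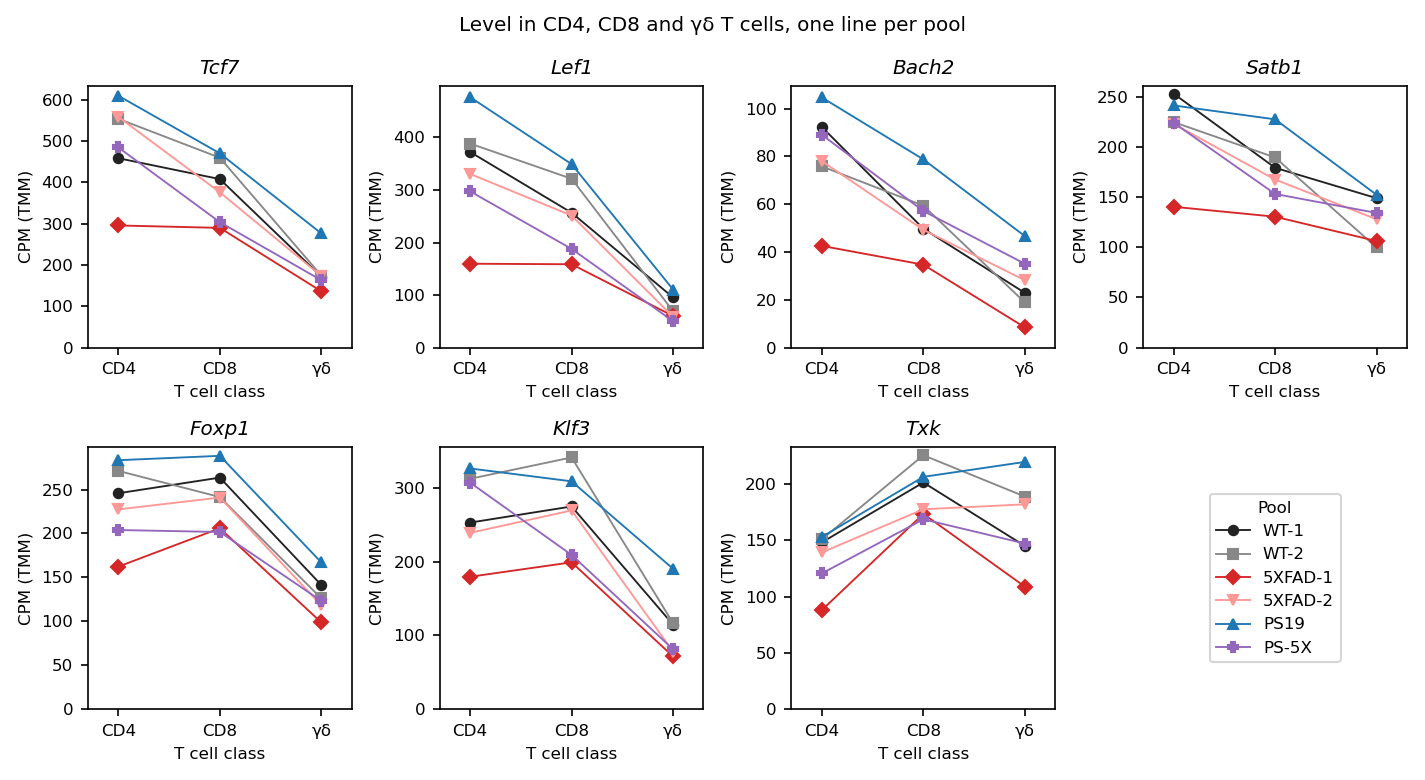
Level of each of the 7 genes in CD4, CD8 and γδ T cells, in TMM-scaled CPM on a linear axis from 0, with 1 point per pool and a line joining the points of a pool. Tcf7, Lef1 and Bach2 step down from CD4 to CD8 to γδ cells in each of the 6 pools, whereas Txk is higher in CD8 than in CD4 cells in each of them.

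CD8 cells differed from CD4 cells in 5 of the 7 members by edgeR's quasi-likelihood test, where 25.4% of the 10790 genes tested differed in either direction. Tcf7 was lower in CD8 cells by a log2 difference of -0.35 ± 0.08 (SE, n = 6 pools; adjusted p = 0.00147) and Lef1 by -0.39 ± 0.08 (adjusted p = 0.00131). For Lef1 the CD4 levels were 160 to 477 CPM and the CD8 levels 159 to 349. Bach2, at 42.6 to 105 CPM in CD4 cells and 34.7 to 78.8 in CD8 cells, was lower by -0.52 ± 0.08 (adjusted p = 6.65e-05). Satb1 was lower by -0.31 ± 0.07 (adjusted p = 0.00289), from 140 to 253 CPM in CD4 cells and 130 to 228 in CD8 cells. Each of these 4 genes was lower in CD8 than in CD4 cells in 6 of 6 pools, although the ranges of the classes overlapped. The step was smallest in 5XFAD-1, where Tcf7 was at 296 CPM in CD4 cells and 289.8 in CD8 cells and Lef1 at 160 and 159. Txk went the other way: it was at 88.1 to 153 CPM in CD4 cells and at 169 to 226 in CD8 cells, with no overlap, and the log2 difference was 0.55 ± 0.08 (adjusted p = 1.05e-05). For Foxp1 (0.06 ± 0.06) and Klf3 (-0.02 ± 0.10) no difference was detected, and each was higher in CD8 cells in 4 of 6 pools. Without PS-5X the Klf3 value was 0.10.

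Compared with CD8 cells, γδ cells were lower in all 7 members (adjusted p under 0.05), with 21.7% of tested genes lower. Lef1 showed the widest gap: its 50.2 to 111 CPM in γδ cells (median 64.7) lay below the CD8 range of 159 to 349, with a log2 difference of -1.82 ± 0.11 (adjusted p = 1.36e-11). Klf3 was at 71.4 to 190 CPM in γδ cells and 199 to 341 in CD8 cells, and differed by -1.35 ± 0.12. Tcf7 (-1.08 ± 0.09), Bach2 (-1.03 ± 0.14) and Foxp1 (-0.90 ± 0.07) followed, with adjusted p of 2.27e-06 or less. Satb1 differed less, by -0.44 ± 0.09 (adjusted p = 0.000301), and its range of 99.8 to 152 CPM in γδ cells overlapped that of CD8 cells, as did that of Bach2. All 6 of these genes were lower in γδ cells in 6 of 6 pools. Txk was at 109 to 220 CPM in γδ cells, lower than in CD8 cells in 4 of 6 pools. Its difference of -0.22 ± 0.08 (adjusted p = 0.0439) lost its call under DESeq2 (adjusted p = 0.0949), with DESeq2 size factors (0.0757), with γδ and CD8 cells alone in the fit (0.0722) and without WT-1, WT-2, 5XFAD-1 or PS-5X (adjusted p of 0.0936 to 0.238). Against CD4 cells, where 39.3% of tested genes differed in either direction, the same 6 genes were lower in γδ cells (-0.76 for Satb1 to -2.21 for Lef1), and Txk was higher by 0.33 ± 0.09 (adjusted p = 0.00494), in 5 of 6 pools. In sums over cells, fewer cells of a type and less RNA per cell cannot be told apart. The summed level of 8 naive T cell markers moved with these differences, at 885 to 2111 CPM in CD4 cells, 815 to 1626 in CD8 cells and 136.5 to 656 in γδ cells, and its part in them was not tested.

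In CD8 cells, all 7 genes were lower in clones of 2 to 9 cells than in singletons in 6 of 6 pools, and 4 of them fell again in clones of 10 or more (plot of level by clone size). Clone size was read from the receptor library, so it does not depend on the genes tested.

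**Figure D2:**
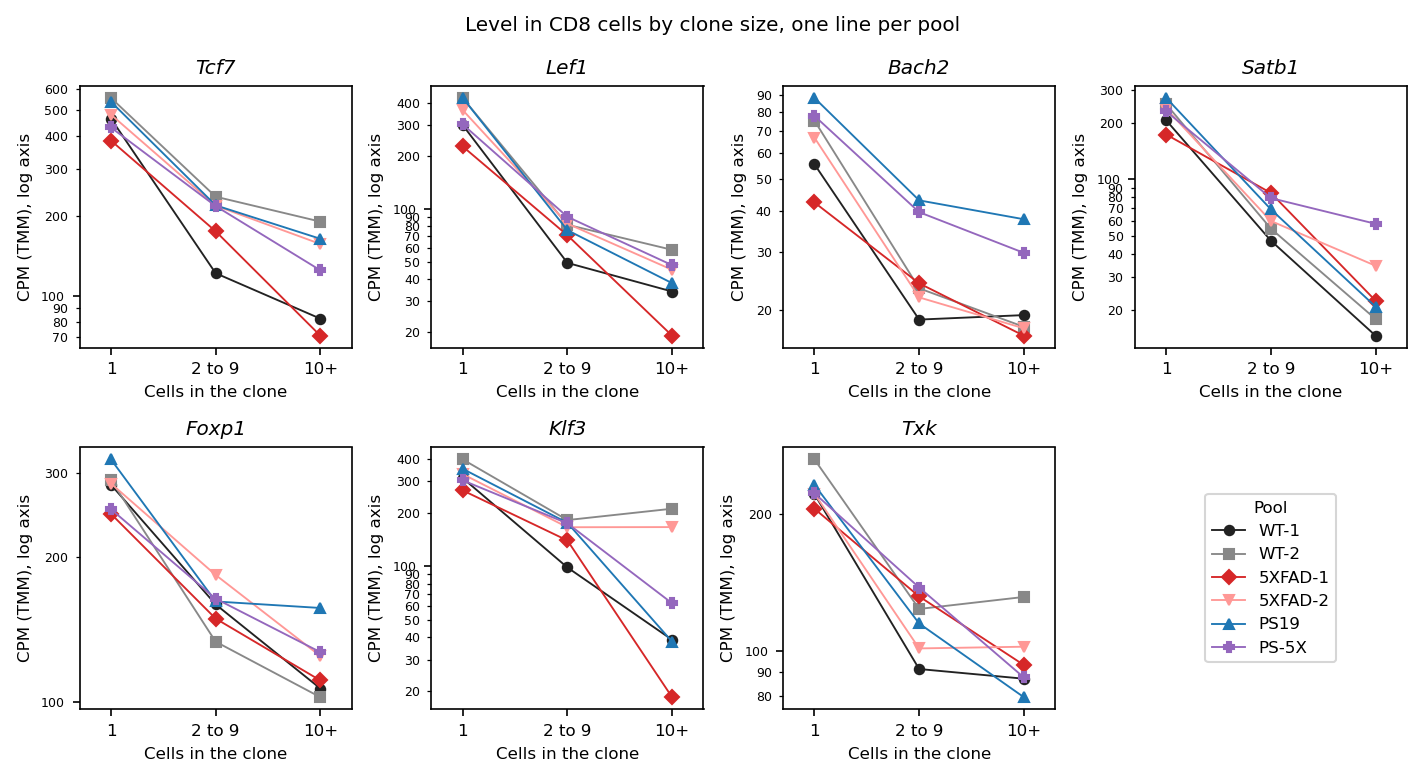
Level of each gene in CD8 cells that are alone in their clone, in clones of 2 to 9 and in clones of 10 or more, in TMM-scaled CPM on a log axis, with 1 line per pool. All 42 lines fall from singletons to clones of 2 to 9, and from there Tcf7, Lef1, Satb1 and Foxp1 fall further in each of the 6 pools while Klf3 stays level or rises in WT-2 and 5XFAD-2.

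Lef1 had the largest drop: singletons were at 226 to 426 CPM (median 333), clones of 2 to 9 at 49.3 to 90.0 (median 78.4), and the log2 difference was -2.11 ± 0.11 (n = 6 pools, edgeR adjusted p = 1.39e-11). The ratio of the 2 levels was 0.165 to 0.313 over the pools. Tcf7 fell from 385 to 557 CPM (median 474) to 122 to 237 (median 219), by -1.23 ± 0.10 (adjusted p = 2.65e-08). The groups of both genes did not overlap. Over all genes tested, 9.29% were lower at this step, against 7 of 7 members. The members were chosen with earlier results of these data known, so counts of members here and elsewhere are a description, not independent support.

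Of the repressors and chromatin factors, Satb1 fell the most, from 174 to 274 CPM in singletons to 46.9 to 84.6, by -1.77 ± 0.15 (adjusted p = 5.51e-08). Bach2 fell from 42.5 to 88.1 CPM to 18.8 to 43.1, by -1.20 ± 0.11 (adjusted p = 6.80e-08). It was the only member whose ranges overlapped, since its singletons in 5XFAD-1 (42.5) were below the clones of 2 to 9 of PS19 (43.1). Foxp1 had the smallest fall, from 247 to 320 CPM to 133 to 184, by -0.82 ± 0.07 (adjusted p = 4.58e-08). Klf3 fell from 266 to 398 CPM to 98.5 to 182, by -1.03 ± 0.22 (adjusted p = 0.00180). The kinase gene Txk fell from 206 to 264 CPM to 91.5 to 138, by -0.92 ± 0.08 (adjusted p = 7.02e-08). Each of these 5 genes was lower in 6 of 6 pools. Without the WT-1 cells whose receptors occur in other pools, all 7 kept their call, with log2 differences from -0.82 (Foxp1) to -2.09 (Lef1). Without such cells in any pool all 7 also passed, from -0.84 (Foxp1) to -2.09 (Lef1), where 8.41% of tested genes were lower.

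Singletons and expanded clones differ in how many naive-like cells they hold, and this share moves with the 7 genes. CD8 cells were clustered without the 7 genes and without receptor genes, and 2 of 18 clusters had at least 3 of 8 naive markers among their 10 leading genes (Igfbp4, Actn1 and Dapl1 in both). These naive-like clusters held 10.7% (5XFAD-1) to 39.2% (PS19) of singletons, and 0 to 2.54% of clones of 2 to 9. Outside them, 2 further clusters, with Klra7, Gzmm and Gpr15 among their leading genes, had at least 3 of the 8 naive markers raised 2-fold but fewer than 3 among the 10 leading genes. They held 19.7% to 21.4% of singletons, 0 to 4.61% of clones of 2 to 9 and 0 to 0.495% of larger clones. Whether to count them as naive-like was decided after their values were seen, so both versions are given.

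Within singletons all 7 genes were lowest in the clusters outside both of these strata (CPM without TMM scaling, median of 6 pools). The order of the naive-like and Klra7-marked clusters differed by gene. Lef1 was at 709 CPM in naive-like clusters, 315 in the Klra7-marked clusters and 97.6 in the other clusters, with no overlap between strata. Tcf7 was at 683, 519 and 271 CPM in the same order, also without overlap. Satb1 differed little between the first pair (351 and 305) and was at 82.0 CPM in the other clusters. Foxp1 went from 357 to 295.5 to 181 CPM and Bach2 from 111 to 58.2 to 34.5. Klf3 was about as high in the Klra7-marked clusters as in the naive-like ones (398 and 404) and at 186 CPM elsewhere. Txk alone was highest in the Klra7-marked clusters, at 289 to 342 CPM, above the naive-like range of 229 to 275 and the 115 to 166 of the other clusters. The clusters were not defined by these genes, but they were defined by genes of the same cells, so these levels are a description.

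With the naive-like clusters left out, clones of 2 to 9 cells were still lower than singletons in 7 of 7 members, where 4.73% of tested genes were lower. The differences shrank to -1.35 ± 0.15 for Satb1, -1.29 ± 0.11 for Lef1, -0.88 ± 0.11 for Tcf7, -0.80 ± 0.08 for Txk, -0.79 ± 0.22 for Klf3, -0.63 ± 0.10 for Bach2 and -0.54 ± 0.07 for Foxp1. Adjusted p was 0.000293 or less for each except Klf3 (0.0250), whose call was lost under DESeq2 (0.218), without WT-1 (0.0924) or PS19 (0.0524), and without the WT-1 cells with shared receptors (0.0511). With the Klra7-marked clusters also left out, none of the 7 passed: Lef1 was at -0.43 ± 0.12 (adjusted p = 0.228), Tcf7 at -0.40 ± 0.11 (0.182) and Satb1 at -0.47 ± 0.15 (0.388), and 0.094% of tested genes were lower. All 7 values stayed negative, from -0.20 (Foxp1) to -0.47 (Satb1).

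**Figure D3:**
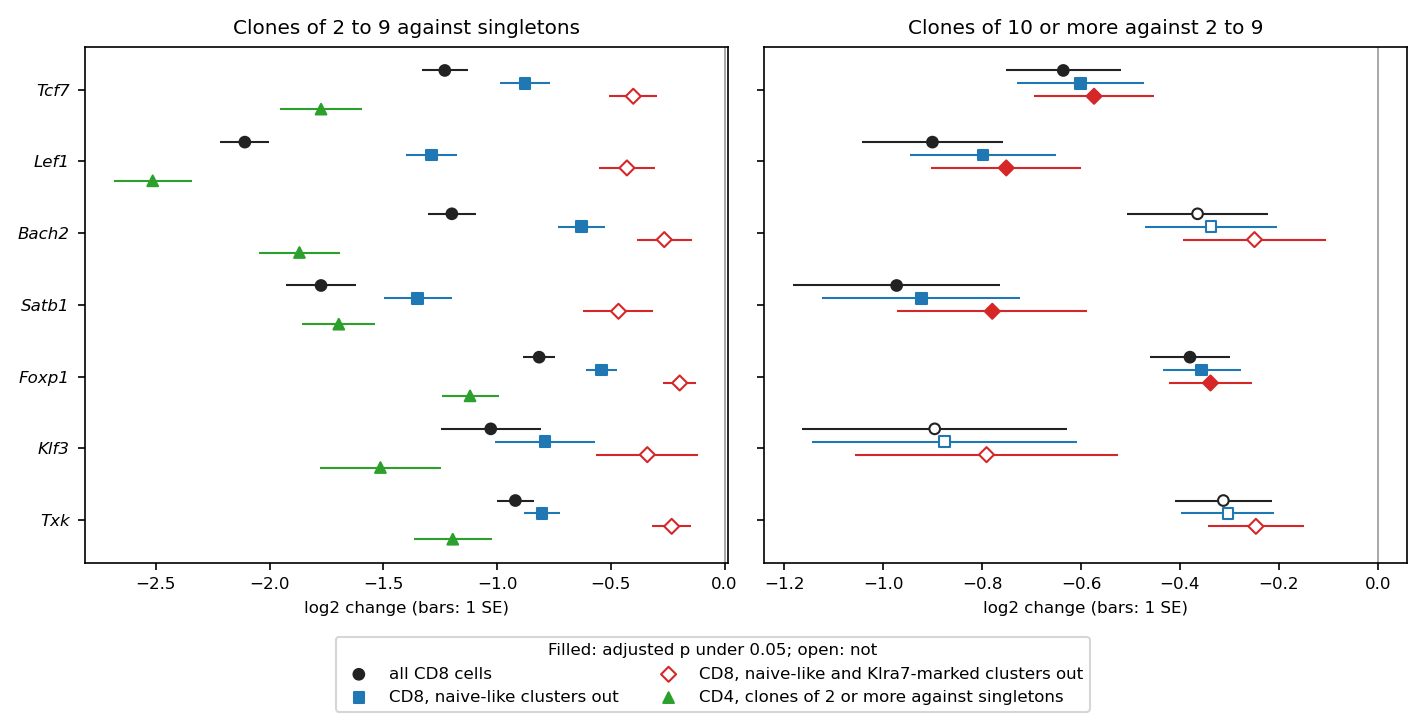
Log2 change of each gene from singletons to clones of 2 to 9 (left) and from clones of 2 to 9 to clones of 10 or more (right), with bars of 1 SE; filled symbols passed an adjusted p of 0.05. On the left the CD8 change shrinks from all cells to cells without naive-like clusters to cells without naive-like and Klra7-marked clusters, where none of the 7 passed, while on the right Tcf7, Lef1, Satb1 and Foxp1 pass in all 3 sets; triangles give CD4 clones of 2 or more against singletons.

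From clones of 2 to 9 to clones of 10 or more, 4 members fell, at a step where 0.648% of all tested genes were lower. Lef1 went from 49.3 to 90.0 CPM down to 19.0 to 58.4, by -0.90 ± 0.14 (n = 6 pools, edgeR adjusted p = 0.00263). Tcf7 went from 122 to 237 down to 71.0 to 191, by -0.64 ± 0.12 (adjusted p = 0.00599). Satb1 fell by -0.97 ± 0.21 and Foxp1 by -0.38 ± 0.08 (adjusted p = 0.0187 for both). In each of the 4 genes the larger clones were lower in 6 of 6 pools, and the ranges overlapped. Bach2 (-0.36 ± 0.14, adjusted p = 0.295) was lower in 5 of 6 pools and Txk (-0.31 ± 0.10, adjusted p = 0.139) in 4 of 6.

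Klf3 differed between pools at this step. It was at 18.4 CPM in the clones of 10 or more of 5XFAD-1, 37.8 in PS19, 38.7 in WT-1 and 62.1 in PS-5X, each below the 98.5 to 182 CPM of the clones of 2 to 9. In contrast, it was at 166 CPM in 5XFAD-2 and 210 in WT-2, where clones of 2 to 9 had 166 and 182. Over the 6 pools its change was -0.90 ± 0.27 (adjusted p = 0.115), and without WT-2 it was -1.28 ± 0.25 (adjusted p = 0.00479). The pools that kept Klf3 were the 2 of the second run, so run and pool cannot be told apart here.

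The step to large clones rested on some pools more than on others. Without 5XFAD-1 only Lef1 passed (-0.73, adjusted p = 0.0122), and without PS-5X only Lef1 (-0.95) and Satb1 (-1.49), although the values of the other members stayed negative. Foxp1 did not pass without 5XFAD-2 (adjusted p = 0.0940), nor Satb1 without PS19 (0.0556). With WT-2 left out, 6 of the 7 passed, Bach2 being the other one. Without receptors shared between pools, which leaves clones of 10 or more in 4 pools, Lef1 (-0.82 ± 0.13, adjusted p = 0.00394) and Tcf7 (-0.61 ± 0.12, adjusted p = 0.0271) passed, where 0.228% of genes were lower. Satb1 (-0.74 ± 0.22, adjusted p = 0.216) and Foxp1 (-0.39 ± 0.10, adjusted p = 0.102) did not pass there. Leaving out the naive-like clusters changed little: the same 4 passed (-0.36 for Foxp1 to -0.92 for Satb1), where 0.7% of genes were lower. With the Klra7-marked clusters also out, Lef1 (-0.75, adjusted p = 0.00990), Tcf7 (-0.57, 0.0143), Satb1 (-0.78, 0.0400) and Foxp1 (-0.34, 0.0400) still passed, where 0.595% of genes were lower.

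Single large clones showed how far the genes went down and how much clones differed. There were 33 CD8 clones of 20 or more cells, with 1594 cells in all: 17 in PS-5X, 6 in WT-2, 4 in 5XFAD-2, 3 each in 5XFAD-1 and PS19, and 0 in WT-1. The 3 of 5XFAD-1, 2 of PS19 and 2 of PS-5X had cells whose receptors were also found in other pools. The clones of a pool share a library, so they are described and not tested, and intervals are exact 95% Poisson intervals that cover counting error only. Lef1 was at 0 to 156 CPM per clone (median 38.4) and Tcf7 at 9.33 to 299 (median 122), and in 33 of 33 clones the interval lay below the level of the pool's own singletons for both. Satb1 ran from 0 to 198.5 CPM (median 19.2), with 8 clones at 0 UMIs, and was below the singletons in 29 of 33. Foxp1 (59.8 to 244 CPM) was below in 27, Txk (10.5 to 287) and Klf3 (0 to 744) in 26 each, and Bach2 (0 to 109) in 19. A single clone was above all singletons of its pool for any member: a 5XFAD-2 clone of 20 cells had Klf3 at 744 CPM (95% interval 578 to 944). These singletons include the naive-like and Klra7-marked clusters. In singletons outside both, Satb1 was at 73.9 to 98.9 CPM over the pools. The clone highest in Satb1, of 47 cells in PS-5X, had 198.5 CPM (95% interval 154 to 252). The other clones were not compared with that part of the singletons.

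Large clones with little Pdcd1, the gene for PD-1, had higher median levels of every member except Bach2 (plot of clones). The 9 clones under 100 CPM of Pdcd1, a value chosen after seeing the data, had a median Satb1 of 83.6 CPM against 12.7 in the other 24, with ranges of 0 to 198.5 and 0 to 128. For Lef1 the medians were 95.7 and 35.7 CPM, and for Klf3 289.65 and 30.99 CPM. Tcf7 (142.5 and 108), Foxp1 (174 and 116) and Txk (147 and 93.1) went the same way, and Bach2 (23.8 and 28.0) the other. The ranges overlapped for all 7. Over the 33 clones Spearman's rho with Pdcd1 was -0.522 for Satb1, -0.474 for Lef1, -0.433 for Klf3, -0.389 for Tcf7, -0.237 for Foxp1, -0.179 for Txk and 0.237 for Bach2. Of the 33 clones 17 are from PS-5X, among them all 5 with Satb1 above 100 CPM. Klf3 went with Cx3cr1 (rho = 0.454), though 21 of the 33 clones had 0 Cx3cr1 UMIs and so share a rank. Tcf7 was closer to Klf3 (0.591) than to Lef1 (0.238). In 4 clones, all of WT-2, 61.9% to 95.2% of cells were in the cluster led by Cx3cr1, S1pr5 and Klrg1. These 4 had Klf3 at 397 to 479 CPM against a median of 41.9 in the other 29. Their Pdcd1 was at 0 to 6.41 CPM, so they were among the 9 clones with little Pdcd1.

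**Figure D4:**
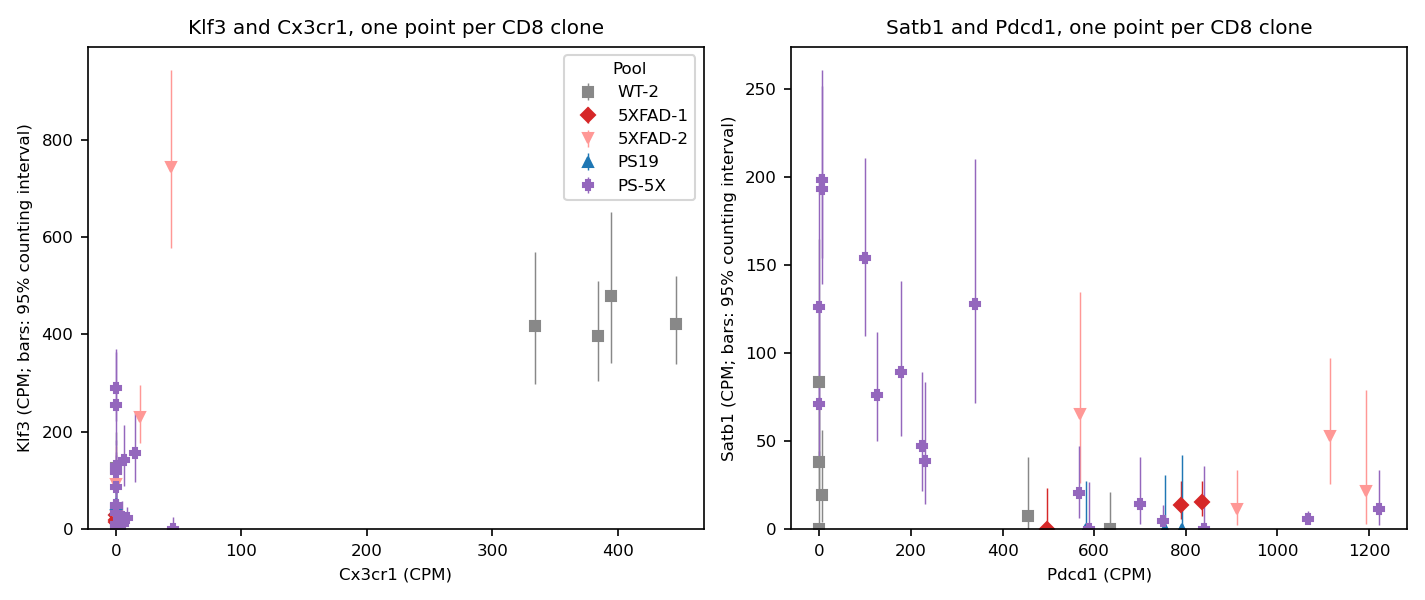
Klf3 against Cx3cr1 (left) and Satb1 against Pdcd1 (right) in the 33 CD8 clones of 20 or more cells, in CPM on linear axes, 1 point per clone coloured by pool, with exact 95% counting intervals on the vertical axis. On the left, 4 WT-2 clones with Cx3cr1 at 334 to 446 CPM have Klf3 at 397 to 479 and 1 clone of 5XFAD-2 with little Cx3cr1 reaches 744; on the right, the 5 clones with Satb1 above 100 CPM have Pdcd1 at 0 to 341.

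CD4 cells showed the same direction. Of 2616 CD4 cells, 2130 were singletons, and only 128 were in clones of 10 or more, so all clones of 2 or more were compared as 1 class. All 7 members were lower in expanded CD4 cells, in 6 of 6 pools and with no overlap between the groups, where 5.28% of tested genes were lower. Lef1 fell from 248 to 570 CPM (median 402) to 21.5 to 118 (median 65.8), by -2.51 ± 0.17 (edgeR adjusted p = 3.65e-08). Tcf7 fell from 446 to 711 CPM to 62.6 to 291, by -1.77 ± 0.18 (adjusted p = 4.05e-06). The lowest expanded value of both genes was in 5XFAD-1. Bach2 fell from 63.5 to 125 CPM to 10.3 to 44.8, by -1.87 ± 0.18, and Satb1 from 176 to 291 to 48.7 to 90.6, by -1.70 ± 0.16 (adjusted p = 2.08e-06 for both). Klf3 fell by -1.51 ± 0.27, Txk by -1.20 ± 0.17 and Foxp1 by -1.12 ± 0.13, with adjusted p of 0.000912 or less. All of these calls held in each of the 16 alternatives run. CD4 cells were not clustered, so none of these alternatives left out naive-like CD4 cells, and their part in the falls was not tested. WT-1 had only 15 expanded CD4 cells.

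The CD4 clones of 10 or more differed from each other. In 5XFAD-1, where 81 cells came from 3 clones and 51 of them from 1, Tcf7 was at 21.8 CPM (95% interval 12.2 to 36.0) and Satb1 at 112 (88.4 to 140). The single WT-2 clone, of 26 cells, had more Tcf7 and less Satb1 RNA than these: Tcf7 was at 334 CPM (227 to 475) and Satb1 at 10.8 (0.273 to 60.1), from 1 UMI. In the PS-5X clone of 17 cells Tcf7 was at 242 CPM and Satb1 at 227. In 5XFAD-2, 4 CD4 cells were in a clone of 10 or more, too few for a level. No test between these clones was made.

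The size of the fall was not shown to differ between CD8 and CD4 cells. The interaction of lineage and expansion was called for 0 of the 7 members, where 0.606% of genes were called. Of the members, 1 (Bach2) was under an unadjusted p of 0.05, as were 1112 of the 10564 genes tested. Bach2 had the largest value, 0.57 ± 0.22 (a smaller fall in CD8 cells, adjusted p = 0.322), then Satb1 with -0.40 ± 0.21 (a larger fall in CD8 cells, adjusted p = 0.517). Without receptors shared between pools, Bach2 was at 0.38 (edgeR adjusted p = 0.694) and Satb1 at -0.0731 (edgeR adjusted p = 0.986). With all receptors kept, DESeq2 called 0 of the 7 as well. Cells with a Foxp3 UMI, which mark regulatory T cells, were 2.08% to 6.97% of CD4 singletons and 0 to 2.94% of expanded CD4 cells. The 7 falls kept their calls without those cells.

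Pools with amyloid transgenes (5XFAD-1, 5XFAD-2 and PS-5X) were compared with those without (WT-1, WT-2 and PS19), with tau as a second term. In CD8 cells none of the 7 members passed, while all 7 were lower in the amyloid pools. All 7 had an unadjusted edgeR p under 0.05, as did 1167 of the 11540 genes tested. Lef1 had 257 CPM (WT-1), 321 (WT-2) and 349 (PS19) without the amyloid transgenes, and 159 (5XFAD-1), 251 (5XFAD-2) and 188 (PS-5X) with them. Tcf7 had 408, 459.7 and 470.3 CPM and 289.8, 376 and 304 CPM in the same order. The 2 sets of pools did not overlap in either gene. By edgeR Lef1 differed by -0.63 ± 0.17 (adjusted p = 0.276) and Tcf7 by -0.47 ± 0.12 (adjusted p = 0.227), and the other 5 by -0.29 (Foxp1, Txk) to -0.45 (Klf3). Of all genes tested, 0.00867% were called, which is 1 of 11540.

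Within runs, all 7 members were lower in the amyloid pool in each of the 3 pairs that share a run and a tau genotype. The log2 differences were -0.22 to -0.69 for 5XFAD-1 against WT-1, -0.29 to -0.89 for PS-5X against PS19, and -0.0033 to -0.35 for 5XFAD-2 against WT-2. With the run as a block, a fit with 2 residual degrees of freedom, 3 members passed in CD8 cells, where 1.03% of genes were called: Lef1 (-0.65, adjusted p = 0.0323), Klf3 (-0.45, 0.0342) and Tcf7 (-0.47, 0.0372). DESeq2 without the block called Tcf7 alone (adjusted p = 0.0469), with 0.615% of genes called. Without 5XFAD-2, Lef1 (-0.88, adjusted p = 0.0260) and Tcf7 (-0.60, 0.0462) passed, with 0.575% of genes called.

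**Figure D5:**
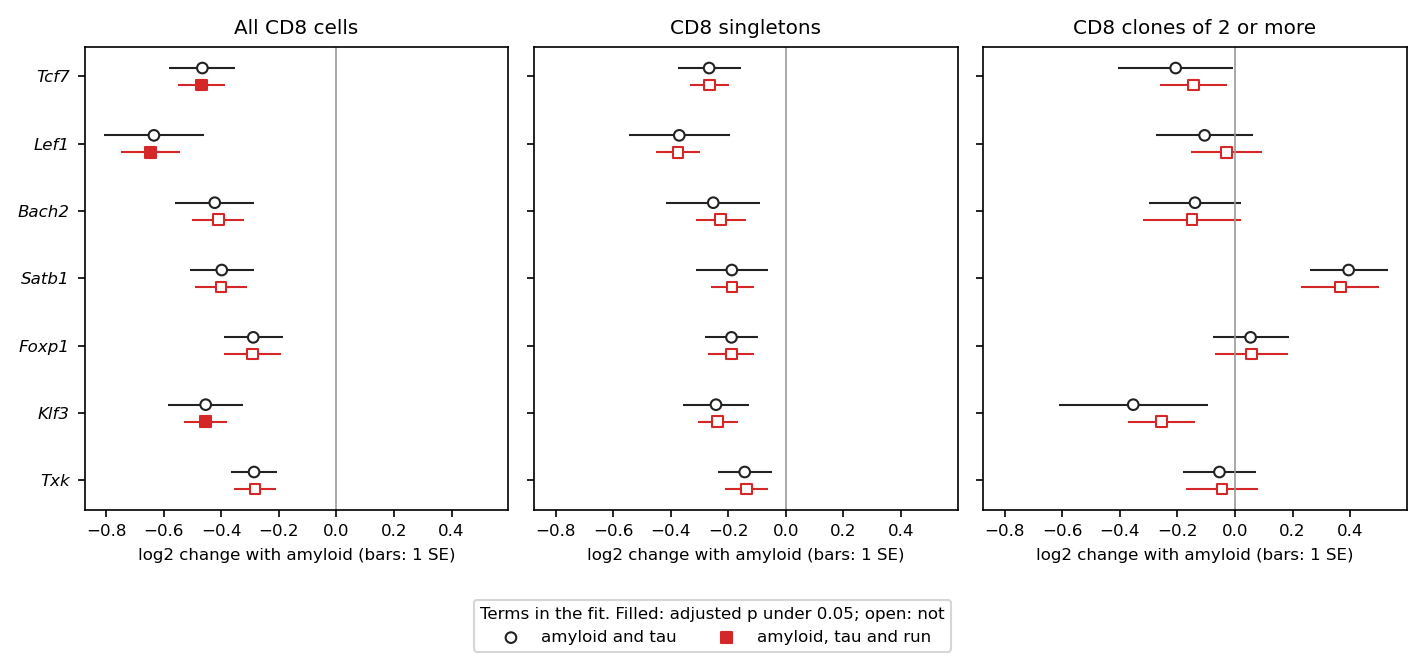
Log2 difference of pools with amyloid transgenes against those without in all CD8 cells, CD8 singletons and CD8 clones of 2 or more, with bars of 1 SE, fitted without (circles) and with (squares) the sequencing run; filled symbols passed an adjusted p of 0.05. All 7 values are negative in all cells and in singletons, 3 pass in all cells once the run is in the fit, and in expanded clones the values lie on both sides of 0 with Satb1 at 0.40.

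The share of naive-like cells in CD8 cells was lower in the amyloid pool of each pair that shares a run and a tau genotype. It was 16.6% (WT-1), 25.5% (WT-2) and 29.8% (PS19) without the transgenes and 6.14% (5XFAD-1), 19.6% (5XFAD-2) and 13.6% (PS-5X) with them. The sets of pools overlapped, as 5XFAD-2 was above WT-1. With the naive-like clusters left out the Lef1 difference was -0.42 (adjusted p = 0.227), and none of the 7 passed. Among CD8 singletons, which hold clone size fixed, 0 of 7 passed (0.0181% of genes called). Lef1 was at -0.37 ± 0.18 and Tcf7 at -0.27 ± 0.11 (adjusted p = 0.867 for both). Of the 7, Tcf7 alone had an unadjusted p under 0.05, as did 620 of 11046 genes tested, and DESeq2 called 0. Among expanded CD8 cells 0 of 7 passed as well (0.472% of genes called). There Satb1 was at 52.1 to 68.0 CPM in the amyloid pools and 37.9 to 59.5 in the others, a difference of 0.40 ± 0.14 (adjusted p = 0.282), and Klf3 was at -0.35 ± 0.26. Of the 7, Satb1 alone had an unadjusted p under 0.05, as did 1116 of 10167 genes tested, and DESeq2 called 0. In the interaction of amyloid and expansion, 3 members had an unadjusted p under 0.05, as did 924 of 10858 genes tested. This interaction, the test of whether the fall with clone size differed, called 0 of 7 (0.0921% of genes called), and 0 by DESeq2. Its largest member value was Satb1 with 0.63 ± 0.16 (adjusted p = 0.254), which passed without 5XFAD-2 (0.76, adjusted p = 0.0467).

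In CD4 cells 0 of 7 passed for amyloid (0.00984% of genes called), and DESeq2 called 0. An unadjusted p under 0.05 was reached by 3 members and by 485 of the 10165 genes tested. Lef1 had 372, 388 and 477 CPM without the transgenes and 159.6, 331 and 297 with them, with the pools ordered as for CD8 cells, a difference of -0.66 ± 0.21 (adjusted p = 0.992) that passed without 5XFAD-2 (-0.9979, adjusted p = 0.0346). In γδ cells Klf3 passed (0.179% of genes called). It was at 71.4, 78.1 and 81.2 CPM in the amyloid pools and 115, 117 and 190 in the others, with no overlap and a difference of -0.89 ± 0.17 (adjusted p = 0.0499). That call was lost with the run as a block (adjusted p = 0.12) and without WT-2, 5XFAD-1, PS19 or PS-5X (adjusted p of 0.0752 to 1.00). For tau, 0 of 7 members passed in CD8 cells (0.00867% of genes called) and in CD4 cells (0.00984% of genes called), by edgeR and by DESeq2. At an unadjusted p under 0.05 were Bach2 in both and Klf3 in CD4 cells. So were 610 of 11540 genes tested in CD8 cells and 514 of 10165 in CD4 cells. Bach2 had the largest tau value in both, 0.48 ± 0.14 in CD8 cells (adjusted p = 0.820) and 0.48 ± 0.20 in CD4 cells (adjusted p = 0.965). Its CD8 levels were 78.8 CPM (PS19) and 57.2 (PS-5X) with the tau transgene and 34.7 to 59.4 in the 4 other pools.

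Across 36 sums of 10 or more cells (class, clone size and pool), the 7 genes followed related but separate patterns. Tcf7 and Lef1 were each other's closest gene among 6106, with Pearson r = 0.957 of log2 CPM, followed for both by Ccr7 (0.942 and 0.949) and S1pr1 (0.938 and 0.940), receptors of lymph node entry and exit. Closest to Bach2 were Grk6 (0.899) and Ccr7 (0.893), and to Foxp1 Ccr7 (0.914) and Rplp0 (0.890). Satb1 was close to Rgs10 (0.871) and Plaur (0.860). Klf3 was closest to Tcf7 (0.912), S1pr1 (0.881) and Ripor2 (0.870). Txk stood most apart, nearest to Impdh2 (0.919), Prxl2c (0.906) and Sh3bp5 (0.881), and its r with the other members ran from 0.446 (Bach2) to 0.701 (Klf3). The sums share pools and clone size classes and are not independent, so no p is given.

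The wider programme split between genes that fell with the members and genes that did not. The lists were chosen with earlier results of these data known. Their counts and medians here and in the next paragraph are therefore a description, not independent support. At the step from CD8 singletons to clones of 2 to 9, where 9.29% of all genes were lower and 9.83% higher, 11 of 13 naive and central memory genes fell and 0 rose, with a median log2 change of -2.59 against 0.00 over all genes; Igfbp4 (-5.00) and Il6ra (-3.75) fell most. Among 18 effector and exhaustion transcription factors, 16 rose and 0 fell (median 0.60), led by Zeb2 (1.10) and Bhlhe40 (1.04). Of 19 other regulators of quiescence and memory, 9 fell and 3 rose (median -0.17). The progenitor factor Myb (-2.17), the inhibitor Id3 (-1.23) and Klf2 (-0.96), which drives S1pr1, fell, whereas the repressor Gfi1 rose (0.62). Of the partners of TCF and LEF, 14 were tested, with 3 lower and 1 higher (median 0.00): the β-catenin coactivators Bcl9 (-1.93) and Bcl9l (-0.94) and the corepressor Tle1 (-1.19) fell, and the β-catenin inhibitor Ctnnbip1 rose (0.90). Of 10 Tec kinases and proximal signalling genes, 2 fell and 4 rose (median 0.11). Tec, a kinase of the same family as Txk, fell (-0.96), and Fyn (0.36) and Lcp2 (0.36) rose. Among other relatives of the members, Klf6 (0.18), Bach1 (-0.04) and Foxp4 (0.08) did not pass.

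At the step to clones of 10 or more, where 0.648% of genes were lower and 0.648% higher, 8 of 13 naive genes fell (median -1.08) and 6 of 18 effector factors rose (median 0.44), among them Ikzf2 (1.31) and Tox (0.92), the factor of T cell exhaustion. The other quiescence regulators had 1 that rose (Gfi1, 0.45) and 0 that fell, and neither the TCF and LEF partners nor the Tec list had a gene that passed. In expanded CD4 cells, where 5.28% of genes were lower and 4.89% higher, 11 of 13 naive genes fell (median -2.56), and 12 effector factors rose while Ikzf2 fell (-1.09). Of the other quiescence regulators 7 fell and 1 rose (median -0.32), with Myb (-2.31), Klf2 (-1.71) and the antiproliferative Tob1 (-1.15) lower and Gfi1 higher (1.05). In γδ against CD8 cells, where 21.7% of genes were lower and 20.8% higher, 12 of 13 naive genes were lower and 1, Il7r (0.83), was higher, and the effector factors split into 7 higher and 6 lower. There Tec was higher (0.78) and Bach1 too (0.96), unlike Txk and Bach2, which were lower.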

How the data were processed

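T cells of 6 pools of mouse brains were measured by droplet 5′ RNA and T cell receptor sequencing. The deposited matrix holds UMI counts per gene and barcode, not normalized, with pools marked in the barcodes. Per the submitters' processing notes and the file headers it was made with Cell Ranger 6.0.1, and builds GRCm38 and mm10 are named. Receptor contigs and clonotypes are the authors' deposited calls.

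Barcodes were kept from 500 genes up and if no more than 10% of UMIs were mitochondrial. CD8 cells had Cd8b1 and no Cd4 UMI and 1 productive β chain, CD4 cells the reverse, and γδ cells had Trdc, another γδ receptor gene and Cd3 UMIs with no coreceptor UMI and no β chain. Barcodes with several β chains (615) or with both coreceptors (531) were left out as possible doublets, and no other doublet caller was run. Clone size counts kept cells of a clonotype within a pool. UMIs were summed per pool and class (at least 10 cells), and sums of 185236 to 23492346 UMIs entered the fits. Tests used edgeR 4.0.16 (R 4.3.3, limma 3.58.1): TMM, filterByExpr, quasi-likelihood fit, Benjamini-Hochberg adjustment over all genes tested and a threshold of 0.05, with pool as a block within pools and amyloid plus tau between pools. Receptor segment genes, Cd8b1 and Cd4 were left out of the tests. SE is the absolute log2 change over the square root of F. Pools are the replicates; with 2 WT and 2 5XFAD pools and 1 each of PS19 and PS-5X, p-values between genotypes rest on 3 residual degrees of freedom and rely on variance shared across genes.

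CD8 cells were clustered with scanpy 1.11.5 (2000 variable genes, 30 components, 15 neighbours, Leiden at resolution 1.0) without members and receptor genes. The naive-like class is rebuilt here and is not an annotation of the authors. On simulated counts for CD8 clones of 2 to 9 against singletons (9872 genes), 74% of 100 genes changed 1.5-fold and 95% of 100 changed 2-fold were recovered, with 5 false calls. For expanded CD4 cells against singletons (8909 genes) these shares were 34% and 76%, with 3 false calls. For amyloid in CD8 cells (11540 genes) they were 39% and 87%, with 5 false calls. The simulated counts gave every gene the same spread and held no other differences between pools. The shares therefore do not cover genes with a wider spread or effects of pool and run.

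The members and lists were chosen with earlier results of these data known. Named genes are the members, up to 4 called genes of each list by size of change, family relatives, and the 3 genes most alike by Pearson r among genes with a mean of at least 20 CPM. Alternatives were DESeq2 1.42.0, its size factors, no filterByExpr, deeper cells (1000 genes), other clone, doublet and sum rules, each pool left out, WT-1 cells with shared receptors left out, and the sequencing run as a replicate block. Alternatives that leave out clusters, those that leave out shared receptors of all pools, and the block without shared receptors, were chosen after seeing the data. Replicate number 2 marks the second run per the labels, so the numbers pair samples by run. Deviations from group means of samples with the same number had a correlation of 0.257 in CD8, 0.212 in CD4 and 0.151 in γδ cells. Counting intervals are exact Poisson intervals. Promoters are from RefSeq (GRCm38.p6). Some genes of the lists are not reported here. The authors' tables of consensus sequences and clonotype frequencies were not used.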

Additional observations from a re-analysis of the deposited data

How the results depend on the processing

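All 7 calls of lower level in CD8 clones of 2 to 9 and in expanded CD4 cells held in each alternative (105 and 112 values). In CD4 cells no alternative left out naive-like cells. In clones of 10 or more, leaving out a pool gave 1 to 6 members called, also outside naive-like clusters (1 without 5XFAD-1, 2 without PS-5X), and leaving out receptors shared between pools gave 2 in both. Outside naive-like clusters, 0 members passed from singletons to clones of 2 to 9 with the Klra7-marked clusters also left out. For amyloid in CD8 cells the count of members was 0, 1 with DESeq2, 5 with every gene of 1 UMI or more, 3 with the replicate block, 3 with the block and without shared WT-1 receptors, and 0 to 2 without a pool. For amyloid in CD4 cells it was 1 with the 1-UMI filter and 0 to 1 without a pool. In γδ cells it was 0 with DESeq2 size factors, 0 with the replicate block, with or without shared receptors, and 0 to 1 without a pool. The 1-UMI filter gave 1 for tau in CD8, for amyloid in CD8 singletons and for the amyloid and expansion interaction, which was 0 to 1 without a pool. The replicate block changed no other member call. The cause of these shifts was not tested.

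Values that changed sign had passed no test. They were Klf3 in the difference of expansion between CD8 and CD4 (0.18 with DESeq2, 0.0125 without Foxp3 cells), Lef1 there (-0.0777 without receptors shared between pools), tau in CD8 for Lef1 (-0.0195) and Foxp1 (-0.0334) without shared receptors, for Tcf7 (0.14) and Klf3 (0.12) with the block, for Foxp1 (-0.0535) with the block without shared receptors, and for Lef1 (-0.0885) and Foxp1 (-0.00061) without naive-like clusters, and Tcf7 in the amyloid and expansion interaction (-0.0308 without shared receptors, -0.0164 without naive-like clusters). Leaving out a pool, Klf3 ran from -0.0559 to 0.101 in CD8 against CD4, and in the expansion difference Lef1 ran from -0.18 to 0.28 and Klf3 from -0.29 to 0.45. Satb1 for amyloid in γδ cells ran from -0.29 to 0.0251. For tau in CD8, Tcf7 ran from -0.13 to 0.11, Lef1 from -0.12 to 0.27, Foxp1 from -0.15 to 0.19 and Klf3 from -0.16 to 0.0285, and Txk for tau in CD4 from -0.0684 to 0.21. For amyloid in expanded CD8 cells, Tcf7 ran from -0.41 to 0.0370, Lef1 from -0.24 to 0.0883, Bach2 from -0.20 to 0.0248, Foxp1 from -0.0860 to 0.20 and Txk from -0.14 to 0.11. In its interaction with expansion, Tcf7 ran from -0.0748 to 0.15, Bach2 from -0.14 to 0.51 and Klf3 from -0.33 to 0.0793.

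Counts of all genes called moved more. They ran from 30 to 382 at the step to clones of 10 or more (128 in the fit reported), from 14 to 1168 outside naive-like clusters at the first step (822) and 41 to 391 at the second (169), and from 16 to 256 for the expansion difference (64). For amyloid they ran from 0 to 589 in CD8 (1), 0 to 111 in CD4 (1), 2 to 107 in γδ cells (15), 0 to 222 in CD8 singletons (2) and 0 to 397 in expanded cells (48). They ran from 0 to 172 for its interaction with expansion (10), and for tau from 0 to 205 in CD8 (1) and 0 to 135 in CD4 (1). WT-1 has the fewest cells, with 31 γδ and 86 expanded CD8 cells.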

Other observations

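The CD8 cluster led by Cx3cr1, S1pr5 and Klrg1 held 611 cells and had more Klf3 RNA than the other CD8 cells at each clone size with values. All values in this section are CPM without TMM scaling, were chosen after seeing the data and carry no test, and the cluster's cells had a median of 4145 UMIs. Among singletons, Klf3 in the cluster was at 467 CPM (WT-1), 452 (WT-2), 675 (5XFAD-1), 317 (5XFAD-2), 479 (PS19) and 595 (PS-5X). Outside the cluster it was at 298, 354, 239, 308, 313 and 270 in the same order, lower in 6 of 6 pools. In clones of 2 to 9, where 5 pools had enough cells, Klf3 was at 325 to 560 CPM in the cluster and 122 to 167 outside it. Of the clones of 10 or more, 40.6% of the WT-2 cells were in the cluster, with Klf3 at 478 CPM against 96.6 in the rest, and PS-5X had 17 of 1213 cells there, at 440 CPM against 59.1. In 5XFAD-2, by contrast, 3 of 191 cells were in the cluster and Klf3 in the rest was at 172 CPM; the clone of 20 cells with 744 CPM is in this pool.

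Lef1 went the other way in the same cells: in singletons it was at 128 to 188 CPM in the cluster and 215 to 402 outside it, lower in 6 of 6 pools. Txk in clones of 2 to 9 was at 133 CPM in the cluster and 132 outside it in 5XFAD-1. In the other 4 pools with enough cells Txk was at 238 to 274 CPM in the cluster and 98.3 to 132 outside it.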
